A study of Homo sapiens with 6 samples.

Results

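Transcripts of 10 genes that report on ERK signaling were examined in the established human glioblastoma line U87MG after exposure to P-bi-TAT, a bivalent derivative of the thyroid hormone analog tetrac that acts at the hormone receptor on integrin αvβ3. The genes were the phosphatases DUSP1, DUSP4, DUSP5 and DUSP6, the Sprouty inhibitors SPRY2 and SPRY4, and the transcription factors EGR1, FOS, FOSL1 and ETV5. They were chosen by name, with earlier results of these data known, and all 10 were measured among the 17687 genes read from probe sets with 1 symbol. Treated cells were exposed for 24 h to P-bi-TAT at 30 µM (3 arrays), and untreated cells were kept with PBS alone for as long (3 arrays). Both groups were of the same unmodified line, grown in RPMI with serum and, according to the methods, held in low serum for the days before exposure. The design asks which genes P-bi-TAT changes in these cells, and one line was used as the model. RNA was measured on Clariom S arrays, and every level is a log2 expression value of a probe set. In such bulk RNA, fewer cells that make a message and less of it per cell cannot be told apart.

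ERK is the last kinase of the cascade that runs from growth factor receptors and integrins through RAS, RAF and MEK. Active ERK enters the nucleus and phosphorylates partners of the serum response factor SRF, which switches on immediate early genes such as EGR1 and FOS within minutes, and these messages decay fast. With sustained activity the cell makes FOSL1 and ETV5 and also its own brakes, the DUSP phosphatases that remove phosphate from MAP kinases and the Sprouty proteins that hold back signaling upstream of ERK. In glioblastoma the pathway is driven by receptor tyrosine kinases and by loss of the RAS inhibitor NF1.

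The DNA before the start sites was searched for motifs of the factors named above and of CREB. RefSeq promoters (GRCh38.p14) were held for 6 of the 10 members with 8 start sites, DUSP1, DUSP6, EGR1, FOS, SPRY2 and SPRY4, and 250 bases before each start were read on both strands. Those of EGR1, DUSP1 and FOS are shown because they hold both CArG boxes, the full CRE and the CRE core of the classic immediate early gene. Capitals mark CArG boxes, the SRF sites with a run of A and T between CC and GG, and CRE cores, TGACG on either strand, which CREB and its relatives bind.
EGR1, chr5:138465229-138465478, plus strand: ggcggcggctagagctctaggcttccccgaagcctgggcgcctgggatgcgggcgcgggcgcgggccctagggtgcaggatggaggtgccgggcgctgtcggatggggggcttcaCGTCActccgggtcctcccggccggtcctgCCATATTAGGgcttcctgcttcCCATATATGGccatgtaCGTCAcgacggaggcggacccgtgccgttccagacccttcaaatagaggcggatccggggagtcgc
DUSP1, chr5:172771196-172771445, minus strand: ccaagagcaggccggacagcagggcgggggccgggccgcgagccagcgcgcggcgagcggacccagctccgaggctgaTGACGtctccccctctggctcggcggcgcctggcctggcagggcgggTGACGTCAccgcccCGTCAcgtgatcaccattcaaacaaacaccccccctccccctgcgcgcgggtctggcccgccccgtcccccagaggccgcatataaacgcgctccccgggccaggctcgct
FOS, chr14:75278578-75278827, plus strand: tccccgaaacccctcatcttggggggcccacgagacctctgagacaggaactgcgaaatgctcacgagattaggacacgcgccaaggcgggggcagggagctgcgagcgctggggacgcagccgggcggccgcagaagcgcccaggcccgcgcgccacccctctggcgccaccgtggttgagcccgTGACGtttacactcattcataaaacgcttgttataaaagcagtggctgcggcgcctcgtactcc

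EGR1 alone of the 6 held CArG boxes in this window, 2 of them, from -105 to -96 and from -83 to -74, against 1.16% of all 35116 promoters in the table with at least 1. EGR1 also held 2 CRE cores, DUSP1 held 4, and FOS, SPRY4 and 1 start site of SPRY2 held 1 each, where 21.2% of all promoters had a match. The cores of DUSP1 from -125 to -121 and from -122 to -118 overlap in a full CRE, TGACGTCA, which 1.65% of promoters hold. The ETS core GGAAG was found before DUSP6, EGR1 and each start site of SPRY2, and in 65.1% of all promoters. In EGR1 the core from -87 to -83 shares its last base with a CArG box. No AP-1 site (TGANTCA with C or G in the middle) was found, and 4.2% of all promoters had one. A match is a description of the letters only.

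**Figure D1:**
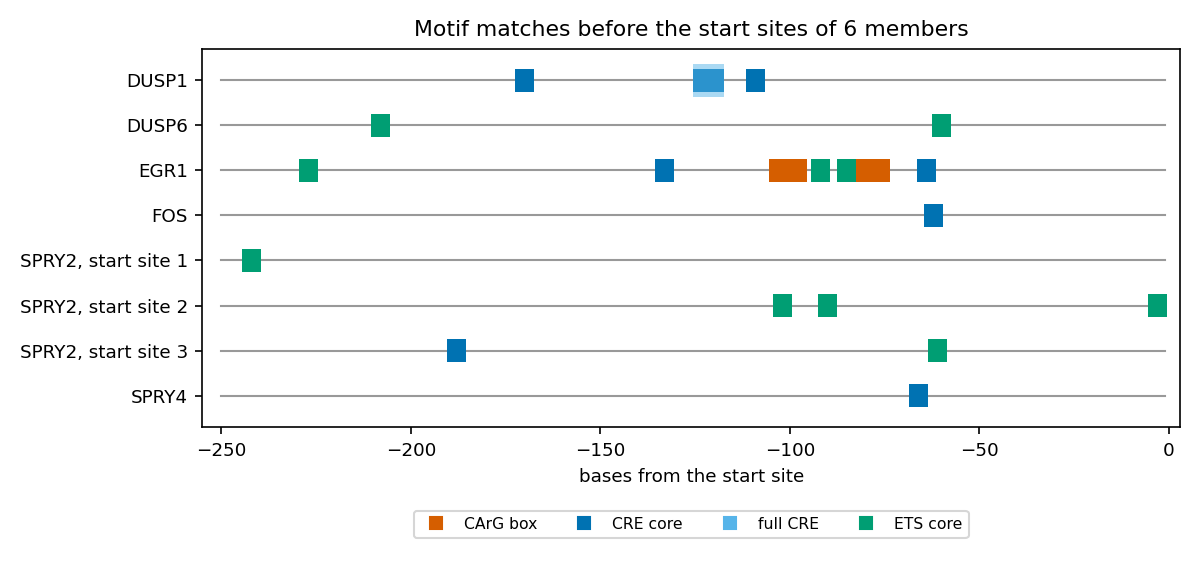
Motif matches in the 250 bases before the 8 start sites of 6 members; the x axis gives bases from the start site and each colored block is a match on either strand. The 2 CArG boxes are in EGR1, and DUSP1 has the full CRE, drawn as a pale taller block.

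The P-bi-TAT arrays did not behave alike. In P-bi-TAT replicate 1 the genes had a median log2 difference of -1.23 from the untreated mean, against -0.02 and -0.00 in replicates 2 and 3, and 89.7% of its gene probe sets shared their value with another one, against 3.76% to 4.94% in the other 5 arrays. Results are therefore given with all 6 arrays and without that array. Medians of the negative controls were 3.67 to 3.98 in untreated and 3.20 to 3.27 in P-bi-TAT arrays. Replicates 2 and 3 correlated at 0.987 over all genes, against 0.921 to 0.953 between untreated arrays, and the P-bi-TAT spread without replicate 1 rests on that pair. The glioma and mesenchymal markers VIM, CD44, NES and FN1 were all above the mean negative control median in both groups. CDKN2A, which U87MG is known to have lost, was at 2.57 to 2.86 in untreated cells, under the negative control medians. Of 9 measured markers of blood, endothelium, epithelium and neurons, 4 were above the mean negative control median in each group, namely CD3E, SNAP25 and SYT1 in both, PTPRC in untreated and PECAM1 in P-bi-TAT arrays, with summed log2 values of 35.84 to 37.31 in untreated and 28.20 to 32.77 in P-bi-TAT arrays. HBB, CDH5, EPCAM and CDH1 were not above it in either group. The part of these differences in the results that follow was not tested.

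The ERK output genes did not pass the test after P-bi-TAT, and they did not move as 1 block. With all 6 arrays 4 of the 10 members were above and 6 below the untreated mean, and in both P-bi-TAT replicates 2 and 3 DUSP1, DUSP4, DUSP5, SPRY4, FOSL1 and ETV5 were above it and DUSP6, SPRY2, EGR1 and FOS below it. The highest of the log2 differences without P-bi-TAT replicate 1 were 1.01 for DUSP4 and 0.95 for ETV5, and the lowest was -0.75 for EGR1. By limma (P-bi-TAT against untreated, Benjamini-Hochberg adjustment over all 21448 gene probe sets), 0 of the 10 members passed an adjusted p under 0.05 with all 6 arrays, where 0 of all 17687 genes did (0%). At an unadjusted p under 0.05 and at least 1.5-fold, 0 members were higher and 0 lower, where 0.192% of all genes were higher and 4.98% lower, and 5.17% passed the unadjusted p in either direction. With the methods' one-way test, 0 members passed either threshold, and 1 of all genes passed the adjusted one. The share of all genes at the unadjusted threshold was not counted with that test.

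All 10 intervals of the difference held 0 with all 6 arrays, and with standard errors of 0.38 to 0.99 they were wide. The smallest member p was that of EGR1 (limma, unadjusted p = 0.0757, adjusted p = 0.847). The groups overlapped for all 10 members, while they did not overlap for 0.758% of all genes in the higher and 14.5% in the lower direction. The median log2 difference of the members was -0.23, against -0.43 for all genes, of which 21.3% were above 0. Without P-bi-TAT replicate 1 the median was 0.57, against -0.01 for all genes, of which 49.3% were then above 0. ETV5 was then the 1 member higher at the 1.5-fold limit and 0 were lower, where 9.26% of all genes were higher and 5.31% lower, and 0 members or other genes (0%) passed an adjusted p under 0.05 from limma.

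**Figure D2:**
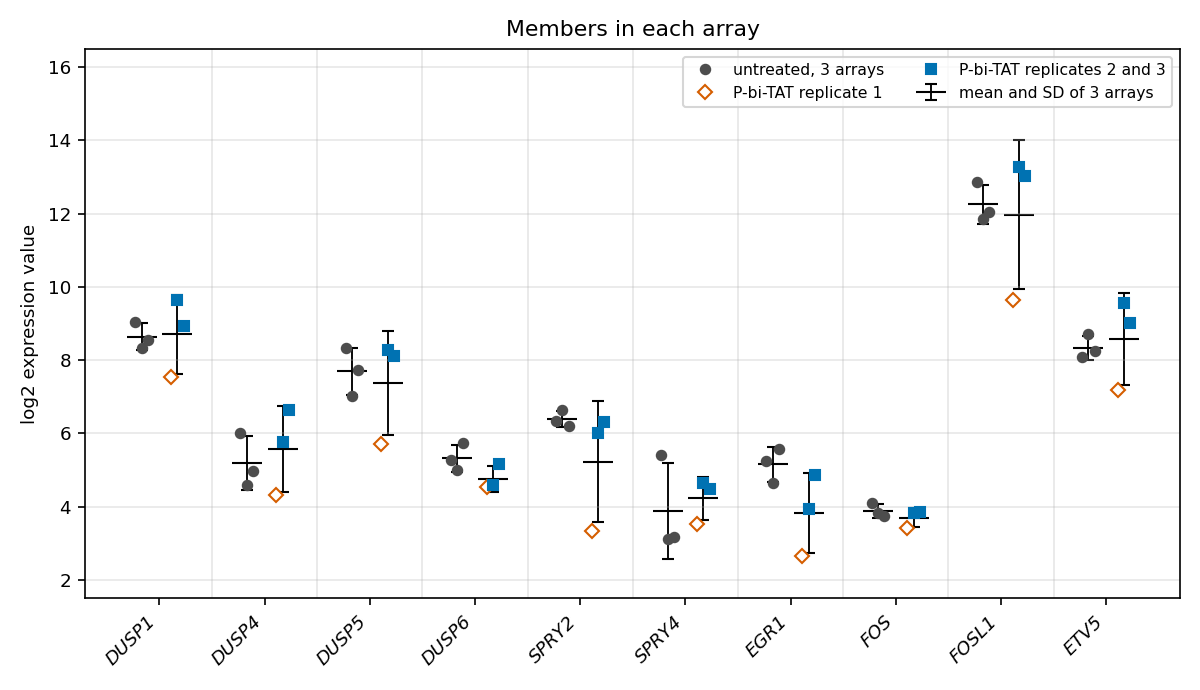
Log2 expression value of each member (y axis) in each of 6 arrays, with the mean and SD of each group of 3. P-bi-TAT replicate 1 (open diamonds) is the lowest of the 6 arrays for 9 of the 10 members, and levels of different probe sets are not to be compared.

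The members followed the low array in most cases. P-bi-TAT replicate 1 was below every untreated array for 9 of the 10 members, where 75% of all genes were, and SPRY4 was the exception. In P-bi-TAT replicate 2, 4 members lay within the range of the untreated arrays, and in replicate 3, 7 did. The share of all genes within that range was not counted, so these counts only describe the members. All 10 members had the same sign in replicates 2 and 3, as 80.5% of all genes did. The SD was larger after P-bi-TAT for 8 of the 10 members, where it was larger for 63.7% of all genes. Within P-bi-TAT replicate 1 the members were 0.36 (SPRY4) to 3.08 (SPRY2) below the untreated mean.

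**Figure D3:**
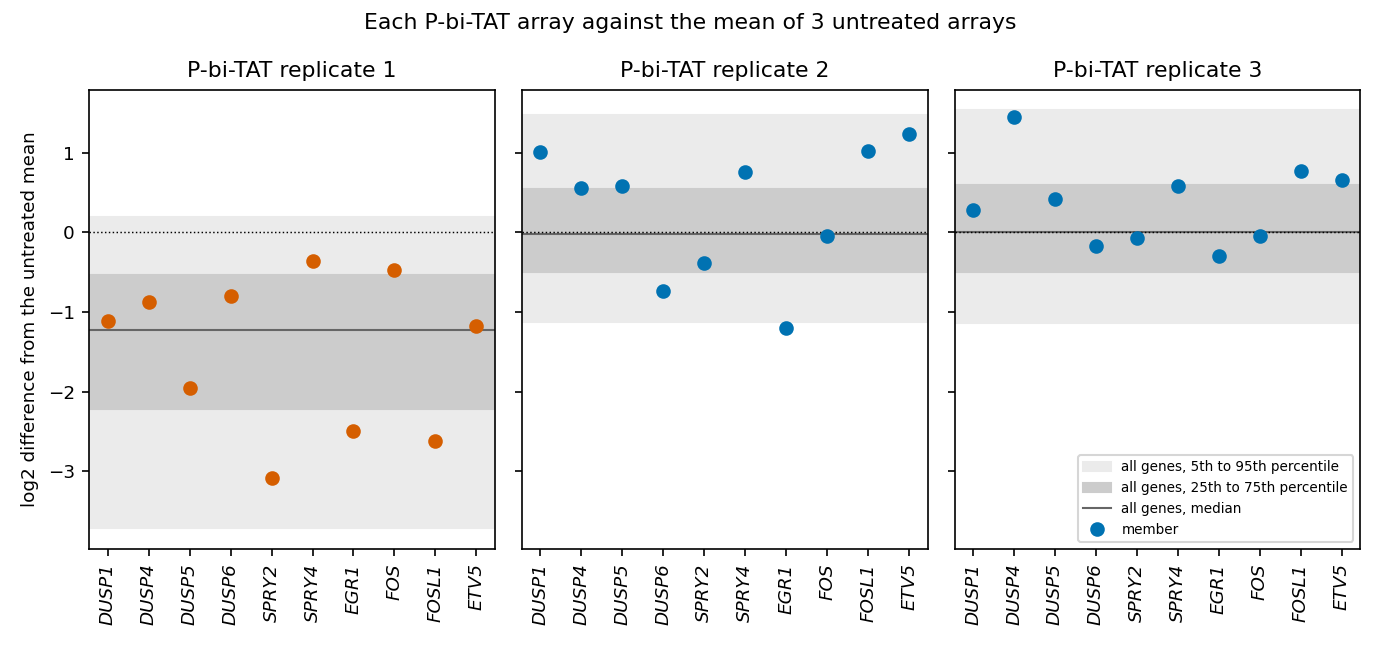
Log2 difference of each member from the mean of the 3 untreated arrays (y axis), for each P-bi-TAT array, over bands of all genes. In replicate 1 all 10 members lie below 0 and the median of all genes is -1.23, and in replicates 2 and 3 the same 6 members lie above 0 and the same 4 below.

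Among the phosphatases, DUSP1, DUSP4 and DUSP5 were above the untreated mean in P-bi-TAT replicates 2 and 3, and DUSP6 was below it. DUSP1, an inducible nuclear phosphatase of JNK, p38 and ERK, was at 9.04, 8.34 and 8.54 in the untreated arrays and at 7.53, 9.65 and 8.92 in P-bi-TAT replicates 1 to 3. Replicate 1 was the lowest and replicate 2 the highest of the 6 arrays, so the groups overlapped on both sides. The group means were 8.64 ± 0.36 (SD, n = 3) and 8.70 ± 1.07 (SD, n = 3), with a log2 difference of 0.06 (95% interval -1.39 to 1.51), and of 0.64 (-0.34 to 1.63) without P-bi-TAT replicate 1.

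DUSP4, a nuclear phosphatase of ERK and JNK, was at 6.01, 4.59 and 4.96 in untreated arrays and at 4.31, 5.75 and 6.64 after P-bi-TAT. The highest value was that of P-bi-TAT replicate 3, but untreated replicate 1 was above P-bi-TAT replicate 2. Its log2 difference was 0.38 (95% interval -1.30 to 2.06), 1.01 (-0.21 to 2.23) without P-bi-TAT replicate 1, and it turned to -0.16 when only the third P-bi-TAT array was dropped. When limma weighted the arrays, DUSP4 was the 1 member at an unadjusted p under 0.05 (0.0337, adjusted p = 0.211). The share of all genes at that limit was not counted with these weights, and 7 of all genes passed an adjusted p under 0.05.

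DUSP5, a nuclear phosphatase specific for ERK, was at 8.32, 7.02 and 7.72 in untreated arrays and at 5.72, 8.27 and 8.10 after P-bi-TAT. P-bi-TAT replicates 2 and 3 were inside the untreated range. The sign of its log2 difference turned with 1 array, from -0.32 (95% interval -2.16 to 1.51) with all 6 to 0.50 (-0.57 to 1.57) without P-bi-TAT replicate 1.

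DUSP6, the cytoplasmic phosphatase of ERK and a transcriptional readout of its activity, was at 5.26, 4.99 and 5.73 in untreated arrays and at 4.53, 4.58 and 5.15 after P-bi-TAT. P-bi-TAT replicates 1 and 2 were under each untreated array and replicate 3 was above untreated replicate 2. The log2 difference was -0.57 (95% interval -1.57 to 0.43, exact permutation test, two-sided p = 0.2) and -0.46 (-1.42 to 0.50) without P-bi-TAT replicate 1. Its P-bi-TAT SD of 0.35 was close to the untreated one of 0.37, and its direction turned to 0.20 when the 6 arrays were quantile normalized.

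The Sprouty members differed in direction. SPRY2, an inhibitor of receptor tyrosine kinase signaling to ERK, was at 6.34, 6.63 and 6.21 in untreated arrays and at 3.32, 6.02 and 6.32 after P-bi-TAT. Its value in P-bi-TAT replicate 1 was 3.08 below the untreated mean, farther than that of any other member, while replicate 2 was 0.38 and replicate 3 was 0.07 below it. The log2 difference of -1.17 (95% interval -3.10 to 0.76) fell in size to -0.22 (-1.09 to 0.65) without replicate 1, so 1 array carried most of it.

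SPRY4, a second Sprouty inhibitor induced by ERK, was at 5.40, 3.10 and 3.18 in untreated arrays and at 3.53, 4.65 and 4.47 after P-bi-TAT. The untreated spread was the larger one here, 1.31 against 0.60 (SD, n = 3). In untreated replicates 2 and 3 the gene was above only 27.9% and 31.7% of the negative control probe sets, against 76.8% in untreated replicate 1 and 61.9% to 82.4% in the P-bi-TAT arrays. The log2 difference was 0.32 (95% interval -1.39 to 2.04), and 0.67 (-0.92 to 2.26) without P-bi-TAT replicate 1. It was -0.08 without untreated replicate 2 and -0.03 without untreated replicate 3, and 1.08 without untreated replicate 1.

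Of the immediate early genes, EGR1 was the member farthest below the untreated mean. EGR1, a zinc finger factor that SRF and its ERK-phosphorylated partners switch on and whose promoter window above holds both CArG boxes, was at 5.25, 4.63 and 5.56 in untreated arrays and at 2.66, 3.94 and 4.85 after P-bi-TAT. Replicates 1 and 2 were under each untreated array, and replicate 3 was above untreated replicate 2. The means were 5.15 ± 0.48 (SD, n = 3) and 3.82 ± 1.10 (SD, n = 3), with a log2 difference of -1.33 (95% interval -2.84 to 0.18, exact permutation test, two-sided p = 0.2, where 0.1 is the smallest that 3 arrays against 3 allow).

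The low array bore on that difference. In P-bi-TAT replicate 1 EGR1 was above only 18% of the negative control probe sets and had the same value as 372 other gene probe sets. Without that array the log2 difference was -0.75 (95% interval -1.82 to 0.32, adjusted p = 0.486 from limma). Without P-bi-TAT replicate 3 it was -1.84, and EGR1 was then the 1 member lower at the 1.5-fold limit (limma, unadjusted p = 0.0265, adjusted p = 0.794). The share of all genes lower without that replicate was not counted. The direction of the EGR1 difference was the same in all of the alternatives run. Among the genes of its own array EGR1 stood at the 44.8th to 56.8th percentile in untreated cells and at the 6.32nd, 37.2nd and 48.5th after P-bi-TAT.

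FOS, the immediate early partner of JUN in the AP-1 factor, was close to the negative controls throughout. It was at 4.10, 3.82 and 3.73 in untreated arrays and at 3.41, 3.83 and 3.85 after P-bi-TAT, above 51.1% to 52.6% of the negative control probe sets in untreated and 56.5% to 67.8% in P-bi-TAT arrays. The 6 values spanned 0.69, less than those of any other member. For FOS the log2 difference was -0.19 (95% interval -1.10 to 0.72), and -0.05 (-0.90 to 0.81) without P-bi-TAT replicate 1. A difference at this level is limited by the signal over background.

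FOSL1, the FOS relative that sustained ERK activity induces and that marks mesenchymal glioma, was far above the negative controls in all arrays. It was at 12.86, 11.84 and 12.05 in untreated arrays and at 9.63, 13.27 and 13.02 after P-bi-TAT. P-bi-TAT replicates 2 and 3 were above each untreated array and replicate 1 was 2.62 below the untreated mean. FOSL1 had a log2 difference of -0.28 with all 6 arrays (95% interval -2.62 to 2.07) and 0.89 without replicate 1 (-0.11 to 1.90, adjusted p = 0.397 from limma).

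ETV5, an ETS factor made in response to ERK signaling, was at 8.07, 8.71 and 8.24 in untreated arrays and at 7.17, 9.57 and 9.00 after P-bi-TAT. Here too replicates 2 and 3 were the highest arrays and replicate 1 the lowest. ETV5 had a log2 difference of 0.24 (95% interval -1.35 to 1.84), and 0.95 (0.00 to 1.89, unadjusted p = 0.0496, adjusted p = 0.348 from limma) without P-bi-TAT replicate 1. FOSL1 and ETV5 were the 2 members whose groups did not overlap without that array, both higher, where the groups of 19.1% of all genes did not overlap in the higher and 17.9% in the lower direction. With 3 arrays against 2 an exact permutation test cannot go below a two-sided p = 0.2, so it adds nothing here.

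**Figure D4:**
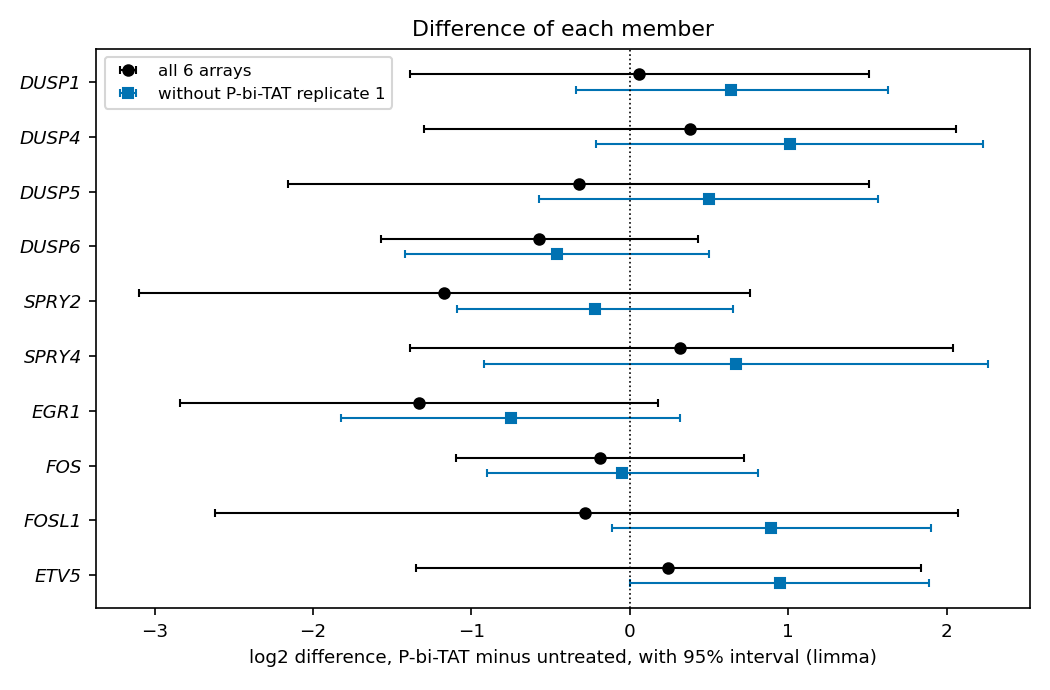
Log2 difference of each member, P-bi-TAT minus untreated (x axis), with its 95% interval from limma, for all 6 arrays and with P-bi-TAT replicate 1 dropped. Each interval with all 6 arrays holds 0, and DUSP5 and FOSL1 change sign when the array is left out.

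The place of a member among the genes of its own array, which does not depend on the scale of that array, gave a partly different picture. The mean percentile was higher after P-bi-TAT for 8 of the 10 members, where it was higher for 49.6% of all genes. It was lower for SPRY2 and EGR1. Without P-bi-TAT replicate 1 DUSP6 was lower as well, with a mean of 48.7 against 54.2, and the other members kept their direction. The share of all genes was not counted without that array. ETV5 went from 81.2 ± 1.91 (SD, n = 3) to 86.5 ± 3.58 (SD, n = 3) and DUSP4 from 52.3 ± 9.73 (SD, n = 3) to 62.4 ± 4.67 (SD, n = 3). SPRY2 stood at the 63.2nd to 67.7th percentile in untreated arrays and at the 42.1st, 59.4th and 61.6th after P-bi-TAT, so its groups did not overlap on this scale. FOS did not overlap in the other direction, at the 27.9th to 34th percentile in untreated arrays and at the 35th to 44.8th after P-bi-TAT. On this scale 7.28% of all genes did not overlap in the higher and 6.39% in the lower direction, so 1 member of 10 each way is close to the background. DUSP6 was the opposite case, with 54.2 ± 4.15 (SD, n = 3) and 55.5 ± 12.1 (SD, n = 3), since it stood at 69.2 in P-bi-TAT replicate 1 and at 46.1 and 51.3 in the others. In P-bi-TAT replicate 1, 7 members shared their value with other probe sets, among them FOS with 162 and SPRY4 with 119, and such ties share 1 percentile.

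**Figure D5:**
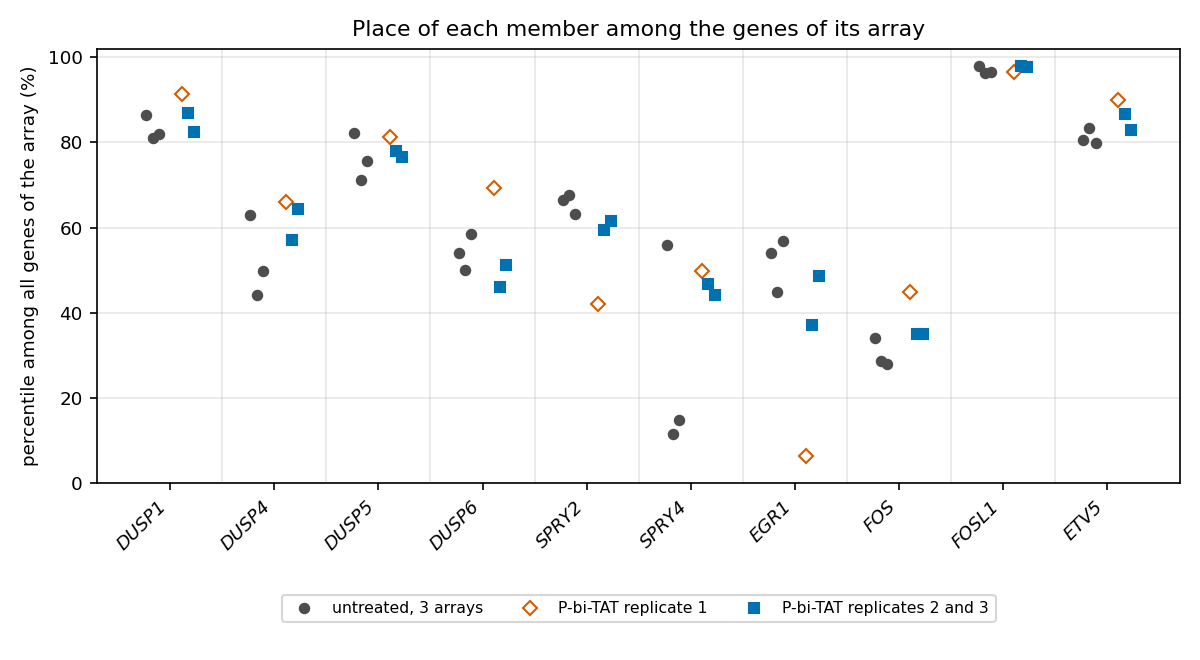
Percentile of each member among the 17687 genes of the same array (y axis), for the 3 untreated and 3 P-bi-TAT arrays. EGR1 stands at 6.32 in P-bi-TAT replicate 1, and the 3 SPRY2 values after P-bi-TAT lie under its 3 untreated values.

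The rest of the pathway was read from 5 lists with 86 further genes, of which 76 were measured. Like the members, these lists were chosen with earlier results of these data known. At the 1.5-fold limit with all 6 arrays, 3 were lower (3.95%, against 4.98% of all genes) and 0 higher (0.192% of all genes), and 0 passed an adjusted p under 0.05 from limma. The 3 were SPRED1, FOSB and IL6. Without P-bi-TAT replicate 1, 18 were higher (23.7%, against 9.26% of all genes) and 2 lower (2.63%, against 5.31%), the 2 being SPRED1 and FOSB, with 0 at an adjusted p under 0.05, and the median log2 difference was 0.58, where all genes had -0.01. With all 6 arrays it was -0.27, where all genes had -0.43, and the medians of the single lists that follow stand beside that same value.

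In the cascade from receptor adaptors to kinases, 16 of 22 genes were measured, with 0 higher and 0 lower and a median log2 difference of -0.56. MAPK3, which encodes ERK1, was at 10.73, 9.81 and 9.10 in untreated arrays and at 9.77, 12.20 and 11.89 after P-bi-TAT. P-bi-TAT replicates 2 and 3 were above each untreated array, as they were for 19.1% of all genes. The log2 difference of MAPK3 was 1.41, or 2.17 without replicate 1. NF1, the GTPase activating protein that turns RAS off, had -2.14 and -0.52, with a value of 3.01 in P-bi-TAT replicate 1 and 7.74 to 9.00 elsewhere. RPS6KA2, a kinase that ERK activates, had 0.71 and 1.03 and was not above the negative controls in untreated cells. Without P-bi-TAT replicate 1 the genes higher at the 1.5-fold limit were ARAF, MAPK3 and RPS6KA2. With all 6 arrays MAPK3 and RPS6KA2 were higher after quantile normalization, median centring or removal of the intensity trend, and NF1 was lower after the last. In that order, 675, 381 and 722 of all 17687 genes were higher after these rescalings, and 552, 220 and 453 lower. The other 6 were not analysed here.

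Of 16 other feedback inhibitors of ERK and related kinases, all measured, 0 were higher and 1 lower, with a median log2 difference of -0.08. SPRED1, a Sprouty-related protein that brings NF1 to RAS, was at 9.58, 10.78 and 9.99 in untreated arrays and at 5.67, 8.61 and 8.62 after P-bi-TAT. Each P-bi-TAT array was under each untreated array (exact permutation test, two-sided p = 0.1), as for 14.5% of all genes. The log2 difference was -2.48 (95% interval -4.54 to -0.42, unadjusted p = 0.0248, adjusted p = 0.847 from limma) and -1.50 without P-bi-TAT replicate 1. RASA2, another RAS inhibitor, had 0.90 and 1.42, and SPRY1, a Sprouty not above the negative controls in untreated cells, had 0.80 and 1.06. Without that array DUSP3, DUSP14, SPRED3 and RASA2 were higher at the 1.5-fold limit. Each of the 3 rescalings of all 6 arrays gave 3 higher, beside the counts of all genes given above, with SPRED1 still the 1 lower gene. The list medians were then 0.39 to 0.43, against -0.02 to 0.08 for all genes. They were DUSP3, SPRY1 and RASA2 by quantile normalization or trend removal, and SPRY1, SPRED3 and RASA2 by median centring.

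Of 24 measured immediate early genes outside the members (26 listed), 0 were higher and 1 lower, with a median log2 difference of -0.35. FOSB, the close relative of FOS, was at 5.63, 5.27 and 4.43 in untreated arrays and at 4.09, 3.69 and 3.56 after P-bi-TAT, with no overlap of the groups and a log2 difference of -1.33 (95% interval -2.43 to -0.23, unadjusted p = 0.0245, adjusted p = 0.847 from limma). Without P-bi-TAT replicate 1 it was -1.48, so for this gene the low array did not carry the difference. FOSB was above 67% to 83.2% of the negative control probe sets in untreated and 59.6% to 75.5% in P-bi-TAT arrays. Its difference is thus limited by the signal over background. It did not pass the unadjusted limit after quantile normalization, median centring or removal of the intensity trend with all 6 arrays. These gave 1 to 3 higher genes from among JUN, KLF2 and CCN2, beside the counts of all genes given above. With P-bi-TAT replicate 1 left out as well, FOSB was again lower at the 1.5-fold limit after quantile normalization or trend removal. FOSL2 had -1.31 and -0.30. KLF4 had -0.53 and -0.37, and its groups did not overlap either. In the lower direction the groups of 14.5% of all genes did not overlap. Without that array 7 genes were higher at the 1.5-fold limit, among them JUN and CCN2, which were named after their values were seen. JUN, the partner of FOS proteins in AP-1, was at 10.25, 9.83 and 9.73 in untreated arrays and at 8.08, 11.60 and 11.40 after P-bi-TAT, and CCN2, a matricellular growth factor, was at 4.46, 4.82 and 4.80 and at 3.41, 7.01 and 6.64.

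Of 14 measured later outputs (16 listed), 0 were higher and 1 lower, with a median log2 difference of -0.23. IL6, an inflammatory cytokine, was at 4.62, 5.28 and 4.96 in untreated arrays and at 3.22, 3.91 and 4.34 after P-bi-TAT (log2 difference -1.13, unadjusted p = 0.0444, adjusted p = 0.847 from limma), and the groups did not overlap. The 3 rescalings of all 6 arrays each lost this call and gave CXCL8 as the 1 higher gene, beside the counts of all genes given above. IL6 was above 64.9% to 83.2% of the negative control probe sets in untreated and 51.3% to 78.6% in P-bi-TAT arrays. PLAUR, the urokinase receptor, had -1.18, or -0.76 if the low array was dropped, again without overlap of the groups. Groups did not overlap in the lower direction for 14.5% of all genes. CXCL8, a chemokine, had 1.26 and 1.65. Without that array CCND1, CXCL8 and EREG were higher at the 1.5-fold limit and 0 were lower.

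SRF and its partners, 6 of 6 measured, had 0 genes higher and 0 lower and a median log2 difference of -0.53. SRF itself had -1.09, or -0.07 if the low array was dropped. MRTFB, an actin-regulated partner of SRF, had -1.59 and -0.65, and ELK3, an ERK-regulated partner, had -0.79 and 0.74. ELK4 was the 1 gene higher at the 1.5-fold limit without that array. For the integrin at which P-bi-TAT acts, ITGAV was at 4.63, 6.20 and 8.89 in untreated arrays and at 3.90, 7.23 and 8.24 after P-bi-TAT, and ITGB3 at 7.40, 6.86 and 6.85 and at 5.43, 6.56 and 6.85. ITGAV had a log2 difference of -0.11 (95% interval -3.48 to 3.25), which turned to 1.16 without P-bi-TAT replicate 1. ITGB3 had -0.75 (95% interval -1.95 to 0.44), which shrank to -0.33.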

How the data were processed

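RNA of 6 U87MG samples was measured on Clariom S arrays, 3 per group, with groups and replicates as the titles give them. The authors deposited log2 expression values per probe set. RMA and version 4.0.1.36 of the Transcriptome Analysis Console stand in the submitters' processing notes, while the methods name SST-RMA, so the exact summary is not settled. The array medians of these values differ, and no scaling was added in the main comparison. The labels do not say whether the replicates were separate cultures, so the p-values reflect only how far these samples spread, which may be technical, and the number of arrays limits the precision.

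The 2903 control probe sets were left out of the tests. A gene was read from its probe set with 1 symbol and the highest mean over 6 arrays (17709 such probe sets, 17687 genes). The groups were compared across the 21448 gene probe sets with limma 3.58.1 (lmFit and eBayes, R 4.3.3) and Benjamini-Hochberg adjustment. Calls used an adjusted p under 0.05, or 1.5-fold with an unadjusted p under 0.05 as in the supplements. A gene was above background in a group where its mean exceeded the mean over its arrays of the median negative control (3.81 in untreated and 3.23 in treated arrays). The fit was tested on simulated data.

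All members, ITGAV, ITGB3 and the 3 genes of each other list with the largest moderated statistic above background were named, plus genes of small counts and those said to be named afterwards. Members and lists were chosen with earlier results of these data known. Alternatives left out each array, used the replicate number as a block, changed the scaling, the filter, the variance model, the test or the probe set of a gene. Promoters and gene positions are from RefSeq (GRCh38.p14), and the array's own build was not used.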

Additional observations from a re-analysis of the deposited data

How the results depend on the processing

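Over all alternatives, 0 of the 10 members passed an adjusted p under 0.05. Of all genes, 7 passed with array weights, 1 with the one-way test and 0 in the others. At 1.5-fold and an unadjusted p under 0.05 there was 1 higher member without P-bi-TAT replicate 1 (ETV5) and 1 with array weights (DUSP4), and 1 lower member without P-bi-TAT replicate 3 (EGR1), with 0 to 1 in each direction when single arrays were left out. Of all genes, 9.26% were higher without P-bi-TAT replicate 1. Their share was not counted with array weights or without P-bi-TAT replicate 3. The median log2 difference of the members, -0.23, was not stable in sign. It was 0.61 with array weights, 0.27 with median centring, 0.33 after quantile normalization and 0.28 after removal of the intensity trend. With P-bi-TAT replicate 1 left out as well, the last pair became 0.25 and 0.30. Leaving out 1 array gave -0.48 to 0.57, with 0.57 without P-bi-TAT replicate 1 and 0.01 without untreated replicate 1. These scalings move the median of all genes from -0.43 to between -0.04 and 0.08.

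DUSP6, SPRY2, EGR1 and FOS were below 0 whichever array was left out (-0.77 to -0.37, -1.73 to -0.22, -1.84 to -0.75 and -0.27 to -0.05). The other ranges held 0: DUSP1 -0.41 to 0.64, DUSP4 -0.16 to 1.01, DUSP5 -0.77 to 0.50, SPRY4 -0.08 to 1.08, FOSL1 -0.92 to 0.89 and ETV5 -0.25 to 0.95. DUSP5 and FOSL1 turned to 0.57 and 0.92 with array weights, 0.28 and 0.26 after quantile normalization, 0.28 and 0.20 after removal of the trend, 0.19 and 0.23 with median centring, and, without P-bi-TAT replicate 1, 0.13 and 0.52 (quantile) and 0.16 and 0.58 (trend removed). FOS turned to 0.37, 0.28 and 0.32 with the last 3 of these scalings and to 0.24 and 0.28 without that array, and DUSP6 to 0.20 with quantile normalization. The causes were not tested.

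The replicate numbers are shared between groups. Same-numbered deviations correlated at 0.304, 0.0361 and 0.333, and differently numbered ones at -0.378 to 0.15. Whether the numbers mark pairs of arrays is not settled by these values. With the replicate block the median of the members was -0.23 and 0 members passed. Dim members such as FOS and SPRY4 are limited by signal over background.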
